A study of Mus musculus with 18 samples.

Results

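The genes described here are 10 genes of autophagy: the cargo receptors Sqstm1 and Nbr1, the ATG8 family members Map1lc3a, Map1lc3b, Gabarap, Gabarapl1 and Gabarapl2, the kinase Ulk1, and the conjugation factors Atg5 and Atg7. They were chosen by name, and a gene was taken as measured where the transcript named for an array probe maps to its symbol. Of the 10, 9 had at least 1 probe, 15 probes in all, and all 9 were among the 17721 genes tested. Gabarapl2 had no probe that maps to it and is not analysed here. Each of the 15 probes was well above background on 18 of 18 arrays, so that no member entered through 1 group alone.

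The livers came from female mice aged 6 weeks, in 6 groups of 3 samples, each on 1 single-colour array. Nrf1 CKO livers carried the genotype Nrf1(dN/-)::Alb-Cre and their controls Nrf1(dN/+), both of a mixed strain. Nrf2 KO livers were Nrf2(-/-) and their controls Nrf2(+/+), both C57BL/6. Keap1 KD livers were Keap1(Kd/-) and their controls Keap1(Kd/+), both of a mixed strain, so that the Keap1 controls carried the Kd allele too, as the Nrf1 controls carried the dN allele. In Alb-Cre mice the albumin promoter, a hepatocyte promoter, drives Cre. The Nrf1 groups differed both in Alb-Cre and in the minus allele, and the effects of these cannot be told apart here. The labels leave unsaid whether a group of 3 samples came from 3 animals. The p-values thus cover the spread of these samples alone, and that spread may be technical. Because whole liver was measured, fewer cells of a type and less RNA per cell cannot be told apart.

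In autophagy, the ULK1 kinase complex starts a membrane that grows into the autophagosome, and ATG7, ATG3 and the ATG12-ATG5 conjugate attach ATG8 proteins of the LC3 and GABARAP branches to its lipid. Receptors such as SQSTM1 (p62) and NBR1 bind ubiquitinated cargo and ATG8 proteins, and are degraded with the cargo. SQSTM1 also binds KEAP1, the adaptor that directs NRF2 to the proteasome, and Sqstm1 is itself known as an NRF2 target gene, while NRF1 is known for driving proteasome genes. The 3 lines thus set the Nrf1 CKO genotype, with Alb-Cre and a minus allele, beside loss of NRF2 and lowered KEAP1.

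Promoter windows of RefSeq (build GRCm38.p6) were available for 9 of the 10 members, all except Map1lc3a. The 250 bases before the annotated start are shown for the 3 members that passed the test in Nrf1 CKO livers, because they moved together, and for the only 2 members with a match to either motif searched. The motifs were the core of the antioxidant response element, TGACNNNGC, which NRF1 and NRF2 bind, and the E-box CACGTG, which TFEB-type factors bind, each on both strands. Capitals mark a match.
Gabarapl1, chr6:129532942-129533191, plus strand: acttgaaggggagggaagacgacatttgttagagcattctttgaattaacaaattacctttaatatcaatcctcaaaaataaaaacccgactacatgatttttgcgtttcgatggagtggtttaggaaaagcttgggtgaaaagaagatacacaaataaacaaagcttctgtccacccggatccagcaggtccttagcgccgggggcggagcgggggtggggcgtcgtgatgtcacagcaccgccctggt
Map1lc3b, chr8:121590188-121590437, plus strand: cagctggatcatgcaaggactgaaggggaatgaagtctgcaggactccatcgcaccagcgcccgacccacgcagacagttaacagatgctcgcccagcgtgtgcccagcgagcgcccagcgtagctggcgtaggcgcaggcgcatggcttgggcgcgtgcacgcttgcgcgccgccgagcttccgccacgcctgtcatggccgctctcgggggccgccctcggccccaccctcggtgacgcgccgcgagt
Ulk1, chr5:110810082-110810331, minus strand: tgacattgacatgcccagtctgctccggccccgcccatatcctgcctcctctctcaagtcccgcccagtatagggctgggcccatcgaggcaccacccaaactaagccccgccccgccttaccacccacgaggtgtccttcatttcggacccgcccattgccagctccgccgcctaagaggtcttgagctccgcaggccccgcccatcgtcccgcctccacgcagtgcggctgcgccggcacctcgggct
Atg5, chr10:44268089-44268338, plus strand: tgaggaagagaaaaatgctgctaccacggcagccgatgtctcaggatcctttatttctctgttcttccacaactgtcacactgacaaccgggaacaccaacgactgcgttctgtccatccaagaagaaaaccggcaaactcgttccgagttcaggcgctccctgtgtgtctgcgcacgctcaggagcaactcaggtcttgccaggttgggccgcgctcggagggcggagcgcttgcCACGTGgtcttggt
Atg7, chr6:114670846-114671095, plus strand: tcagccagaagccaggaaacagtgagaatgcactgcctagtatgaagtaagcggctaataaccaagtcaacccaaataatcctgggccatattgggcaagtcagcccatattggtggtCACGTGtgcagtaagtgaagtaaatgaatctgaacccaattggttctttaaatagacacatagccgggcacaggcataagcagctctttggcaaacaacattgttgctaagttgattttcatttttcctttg
None of the 10 windows of the 9 members (Nbr1 has 2) held the antioxidant response element core, which 10.2% of all 32851 windows of this length hold. The E-box began 14 bases before the start of Atg5 and 132 bases before that of Atg7, and 6.02% of all windows hold it. No match says only that these letters are not in this window, and a match is a description of the sequence.

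Between 21668 and 28213 spots per array (50% to 65% of 43379) were well above background. The share was 52.3% to 54.7% in Nrf1 controls and 57.5% to 60.1% in Nrf1 CKO samples. It was 51.3% to 52.6% in Nrf2 controls and 52.1% to 58.8% in Nrf2 KO samples. In Keap1 controls it was 56.3% to 65% and in Keap1 KD samples 50% to 55.5%. The scaling percentile is taken over all spots but control and outlier spots. The part of these shares in the members' changes was not tested. Arrays of a group correlated at 0.973 to 0.991 over the genes tested. The targeted genes followed the labels. Nfe2l1, which encodes NRF1, was at a log2 level of 3.72 ± 0.18 (SD, n = 3) in Nrf1 controls and was well above background on 0 of 3 Nrf1 CKO arrays. Nfe2l2, which encodes NRF2, was at 3.32 ± 0.20 (n = 3) in Nrf2 controls and above background on 1 of 3 Nrf2 KO arrays. Keap1 was at 4.19 ± 0.80 in Keap1 controls and 1.80 ± 0.06 in Keap1 KD livers (n = 3 each). A log2 level is the log2 of the background-subtracted signal relative to the 75th percentile of that array, so 0 stands for that percentile. Levels are compared only within a probe, except in the summed linear levels of marker genes. Those sums add different probes, so bright probes weigh most in them. The hepatocyte genes Alb, Ttr, Apoa1 and Apob were well above background in every group, as the tissue label implies.

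**Figure D1:**
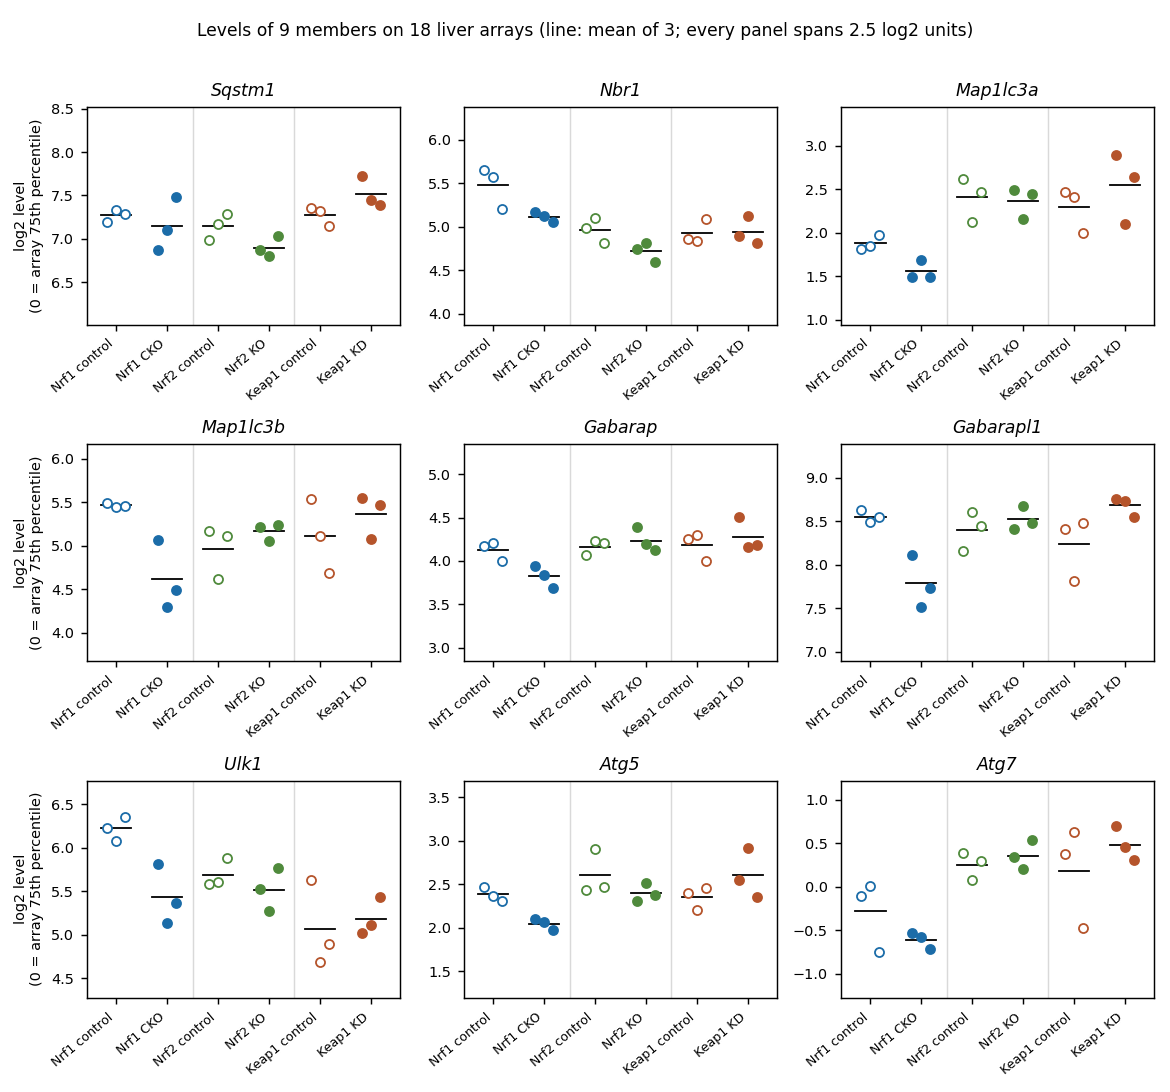
Log2 level (vertical axis, 0 = 75th percentile of the array) of 9 members on 18 arrays, with open circles for controls, filled circles for mutants and a line for the mean of 3 samples. Map1lc3b, Gabarapl1 and Ulk1 lay lower in every Nrf1 CKO sample than in every Nrf1 control, while Sqstm1 groups overlapped in the Nrf1 line.

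Nrf1 CKO livers had lower levels of 3 of the 9 members than their controls and higher levels of 0. Map1lc3b fell by 44.5%, Gabarapl1 fell by 41.1% and Ulk1 fell by 42.0%, while the receptor Sqstm1 differed by less than the spread between samples. These calls are limma's, at a Benjamini-Hochberg adjusted p under 0.05 over all 17721 genes, of which 18.9% passed in this comparison and 10.9% were called lower. All 9 members had a log2 change below 0, with a median of -0.34 against -0.09 over all genes tested, 57.2% of which were below 0. In 7 of 9 members every mutant sample lay below every control, as did 28.1% of all genes.

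Map1lc3b encodes LC3B, the ATG8 protein most used as a marker of autophagosomes. Its log2 level was 5.50, 5.44 and 5.45 in the 3 Nrf1 controls and 5.07, 4.29 and 4.49 in the 3 Nrf1 CKO samples. Every mutant sample was lower, and the mutants spread more widely (4.61 ± 0.40) than the controls (5.47 ± 0.03; SD, n = 3). The log2 change was -0.85 (SE 0.24, limma adjusted p = 0.0230), and a second Map1lc3b probe gave -0.68 (SE 0.16).

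Gabarapl1 encodes an ATG8 protein of the GABARAP branch, which acts later in autophagosome maturation. It read 8.63, 8.49 and 8.54 in Nrf1 controls against 8.12, 7.52 and 7.73 in Nrf1 CKO samples. The groups did not overlap, and sample 2 was the lowest, as for Map1lc3b. The log2 change was -0.76 (SE 0.19, limma adjusted p = 0.0158), and a second probe of the gene, on which the groups also did not overlap, gave -0.85 (SE 0.27).

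Ulk1 encodes the kinase that starts autophagosome formation. Its levels were 6.23, 6.08 and 6.36 in Nrf1 controls and 5.81, 5.14 and 5.36 in Nrf1 CKO samples. All 3 mutant samples lay below the controls, and sample 2 was again the lowest. The log2 change was -0.79 (SE 0.24, limma adjusted p = 0.0327) and that of a second probe was -0.91 (SE 0.21).

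The other members of the ATG8 family and the receptors gave smaller differences in the Nrf1 line. Sqstm1 read 7.20, 7.33 and 7.28 in controls and 6.87, 7.10 and 7.48 in Nrf1 CKO samples, which straddled the controls. Its log2 change was -0.12 with a 95% interval of -0.47 to 0.22 (limma adjusted p = 0.635). The other receptor, Nbr1, was at 5.66, 5.57 and 5.20 in controls and 5.17, 5.12 and 5.06 in mutants, a log2 change of -0.36 (SE 0.15) that did not pass (adjusted p = 0.106). Control 3 lay next to the mutants, and the log2 changes of the 2 other Nbr1 probes were -0.12 (SE 0.21) and -0.38 (SE 0.26). Map1lc3a, the LC3A gene, was at -0.33 (SE 0.20) and Gabarap by -0.30 (SE 0.14), with adjusted p of 0.271 and 0.155.

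Among the conjugation factors, Atg5 was at 2.47, 2.37 and 2.31 in Nrf1 controls and 2.11, 2.07 and 1.97 in Nrf1 CKO samples. The groups did not overlap, and the log2 change of -0.34 (SE 0.16) did not pass (limma adjusted p = 0.160). Atg7, which encodes the E1-like enzyme that activates ATG8 proteins, read -0.10, 0.01 and -0.75 in controls and -0.53, -0.57 and -0.72 in mutants. Control 3 was the lowest of these 6 samples, and the change was -0.33 (SE 0.25, adjusted p = 0.377).

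**Figure D2:**
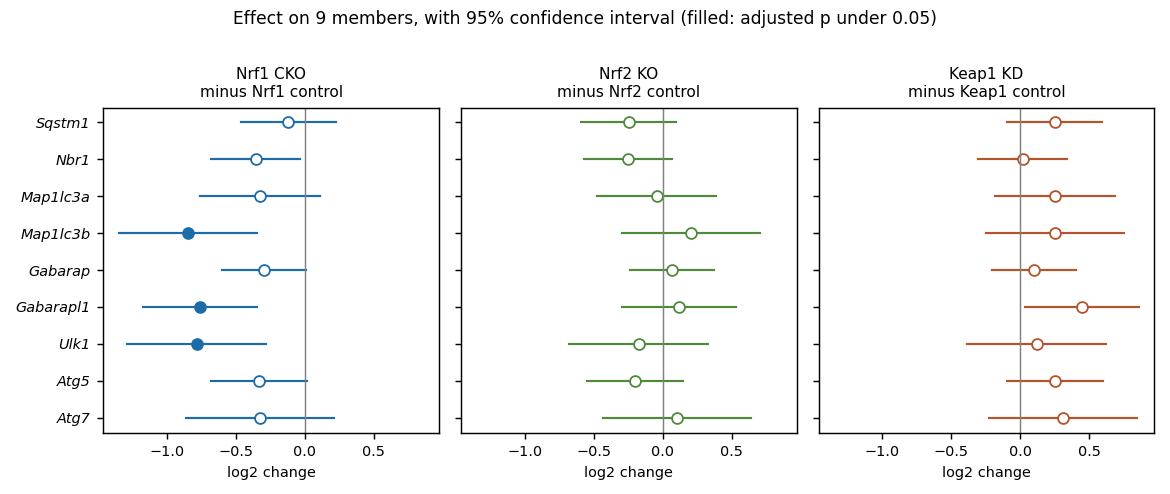
Log2 change (horizontal axis) of 9 members in each mutant against its own control, with the 95% confidence interval from limma and filled circles for an adjusted p under 0.05. Filled circles stand only at Map1lc3b, Gabarapl1 and Ulk1 in the Nrf1 panel, where all 9 estimates are below 0, and all 9 are above 0 in the Keap1 panel.

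The 3 calls depended on how the arrays were scaled. After quantile normalization the log2 changes were -0.53 for Map1lc3b, -0.24 for Gabarapl1 and -0.38 for Ulk1, and none of the 3 passed (limma adjusted p = 0.0800, 0.419 and 0.272). Under the same setting Sqstm1 turned to 0.33 (adjusted p = 0.242) and Nbr1 to 0.01 (adjusted p = 0.980), and after normexp background correction and quantile normalization Sqstm1 was at 0.43 and Gabarap at 0.09, so that the direction of those receptors and of Gabarap is not settled. Map1lc3a, Map1lc3b, Gabarapl1, Ulk1 and Atg5 stayed below 0 in all 21 alternatives run. Of all genes called in this comparison, 42.3% were higher, against 55.1% after quantile normalization, 53.8% after normexp and quantile, 63.3% with the percentile taken over detected probes and 35.3% with array medians.

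Single arrays also decided the calls. Without Nrf1 control 1, Nrf1 CKO 2 or Nrf1 CKO 3 none of the 9 members passed, and without Nrf1 control 2 Gabarapl1 alone did. Without Nrf1 control 3 Ulk1 no longer passed (adjusted p = 0.0800) and Nbr1 did (-0.50, adjusted p = 0.0399). Over all 21 alternatives, left-out arrays included, Ulk1 lost its call in 12, Map1lc3b in 7 and Gabarapl1 in 6. Ulk1 also failed under array medians, the percentile over detected probes, no background filter, and only the arrays compared. The log2 changes of Map1lc3b, Gabarapl1 and Ulk1 stayed at or below -0.63 in each fit with an array left out.

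The slides split the Nrf1 controls. Nrf1 controls 1 and 2 were on slide 1, while control 3 and all Nrf1 CKO samples were on slide 2. Within slide 2, the 3 mutants minus the 1 control gave -0.84 for Map1lc3b, -0.76 for Gabarapl1 and -0.92 for Ulk1, close to the full comparison. There Nbr1 was at -0.08 and Atg7 at 0.14, against -0.36 and -0.33 over all samples. A fit with slide as a block gives these same slide 2 differences, because slide 1 held no mutant, so it is not a second estimate. In it none of the 3 members passed (limma adjusted p = 0.282, 0.270 and 0.182), and 65 genes were called in all. All Nrf1 arrays shared 1 scan date.

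**Figure D3:**
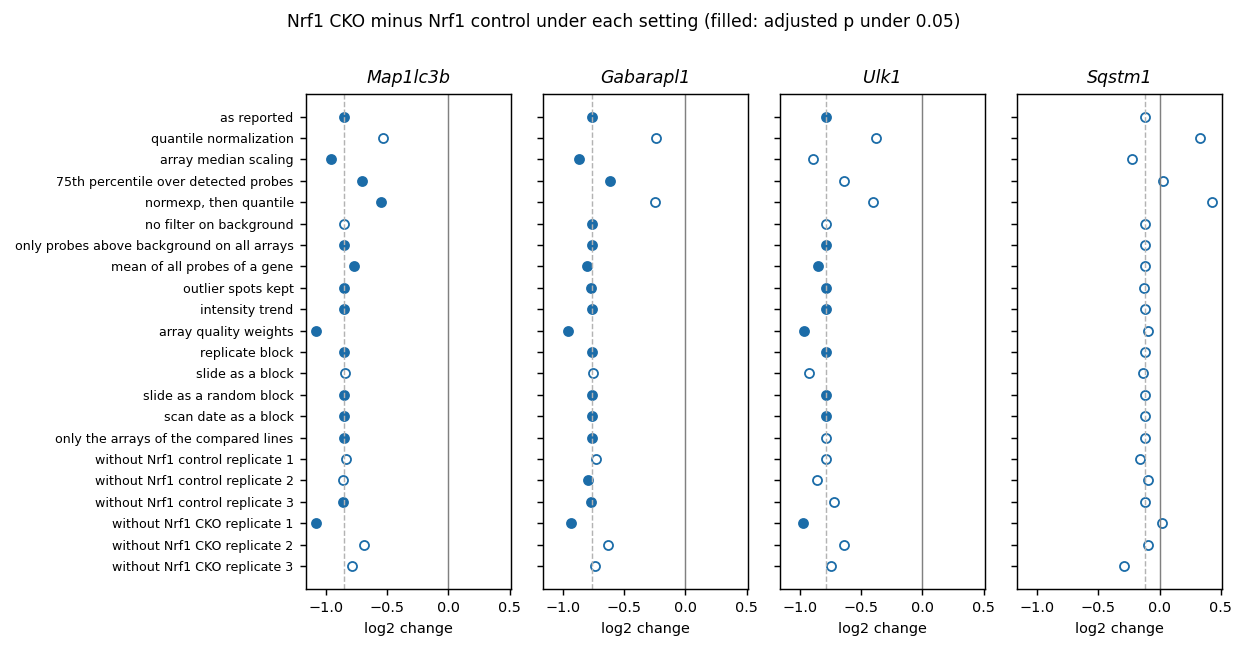
Log2 change (horizontal axis) of 4 members in Nrf1 CKO minus Nrf1 control livers as reported and under 21 alternatives, with filled circles for an adjusted p under 0.05 and a dashed line at the reported value. Map1lc3b, Gabarapl1 and Ulk1 lie below 0 in every row, from -1.08 to -0.24, and Sqstm1 runs from -0.29 to 0.43.

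Marker genes of other cell types differed between the Nrf1 groups. The summed linear level of 12 stellate cell genes was 87.8 to 114 in Nrf1 controls and 135 to 191 in Nrf1 CKO livers, with 11 of 12 genes higher. Over 11 macrophage genes it was 97.6 to 185 against 188 to 403, with 5 higher and 1 lower, and Gpnmb was above background on 0 of 3 control arrays. Over 10 hepatocyte genes it was 4568 to 5414 against 2680 to 3768, with 5 lower and 0 higher, among them Hpd (-1.45), Ass1 (-1.38) and Tat (-1.33). Of the other marker lists, 1 of 10 genes of sinusoidal endothelium (Lyve1, -2.42) and 1 of 4 of erythroid cells (Klf1, -1.56) fell, 1 of 7 of lymphocytes (Cd8a, 1.16) rose, and 0 of 7 of cholangiocytes and 0 of 5 of neutrophils were called by limma. All 7 cholangiocyte genes were above 0 (median 0.67), with a summed linear level of 9.93 to 13.9 in controls and 13.2 to 39.7 in Nrf1 CKO livers. In Nrf2 and Keap1 controls the stellate cell sums were 148 to 184 and 125 to 142. The macrophage sums there were 189 to 293 and 90.2 to 206, and the hepatocyte sums 4699 to 5023 and 3975 to 5423. Nrf1 CKO livers overlapped both these control groups for stellate cell and macrophage genes, and lay below both for hepatocyte genes. With slide as a block, 65 genes of all were called in the Nrf1 line. The part of the marker shifts between the Nrf1 groups in the lower Map1lc3b, Gabarapl1 and Ulk1 was not tested.

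Of 76 measured genes in 7 lists of autophagy genes outside the members, 1 rose and 16 fell in Nrf1 CKO livers, and 59 did not pass. The share called in either direction, 22.4%, was near the 18.9% of all genes, but the directions differed. The 16 of 76 called lower stand against 10.9% of all genes, and the 1 of 76 called higher against 1416 of 17721. Of the 76, 73.7% had a log2 change below 0, with a median of -0.27, against 57.2% and -0.09 over all genes. Of the other cargo receptors 6 of 16 fell and 0 rose (37.5% called, the same share as for the genes of membrane supply), and all 16 were below 0 (median -0.48). The count of 6 was 1 without Nrf1 CKO 2, 2 without Nrf1 control 1 or Nrf1 CKO 3, 3 after quantile normalization and 0 with slide as a block.

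Bnip3, a receptor of mitophagy that is induced in hypoxia, had the largest change of these receptors. Its log2 level was 6.49, 6.25 and 6.33 in Nrf1 controls and 5.15, 4.35 and 4.12 in Nrf1 CKO samples. The nearest mutant sample lay more than 1 log2 unit below the lowest control, and the change was -1.81 (SE 0.22, limma adjusted p = 0.00035). Under the scaling alternatives it ran from -1.92 to -1.50 and passed in each, and with slide as a block it was -1.79 (adjusted p = 0.0903). Its paralog Bnip3l, also a mitophagy receptor, changed by -0.78 (SE 0.18), with 3.34, 3.18 and 3.22 in controls and 2.65, 2.32 and 2.44 in mutants. Retreg1, a receptor for the endoplasmic reticulum, changed by -1.08 (SE 0.33) with overlapping groups (2.03 to 3.11 in controls, 1.23 to 2.10 in mutants), and Tollip, a receptor for ubiquitinated cargo, by -0.63 (SE 0.17).

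Over the other steps the lower calls were few, and are to be read against the 10.9% of all genes that were called lower. Of the initiation complex, 1 of 4 fell, Rb1cc1, the scaffold subunit FIP200 that works with ULK1, at 1.87, 1.83 and 1.91 in Nrf1 controls and 0.94, 0.57 and 0.43 in mutants (-1.23, SE 0.30, limma adjusted p = 0.0125). Of the lipid kinase complex that marks the forming membrane, 2 of 8 fell, Atg14 (-0.88) and Uvrag (-0.52). Of genes that supply membrane and lipid, 3 of 8 fell, Tmem41b (-0.77), Wdr45 (-0.66) and Wipi2 (-0.59). Beside Atg5 and Atg7, 2 of 9 genes of the conjugation machinery fell, the protease gene Atg4d (-0.71) and the E2-like enzyme gene Atg3 (-0.66), while the list's median was 0.02.

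Of the fusion machinery, 1 of 12 fell, Vps33a (-0.57). Of 19 lysosome genes 1 rose, the gene of the proton pump subunit Atp6v1a (0.49). Among regulators of autophagy, 2 of 16 fell: Foxo1 (-1.02), a transcription factor that activates autophagy genes, and Tsc1 (-0.84), a brake on the mTORC1 kinase that restrains ULK1. The calls of Bnip3, Bnip3l, Rb1cc1, Atg14, Tmem41b, Atg3 and Tsc1 held under all 4 scaling alternatives. At least 1 of these ended the call of each other gene named from these lists, and with slide as a block none of them passed by limma (65 genes of all passed there).

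**Figure D4:**
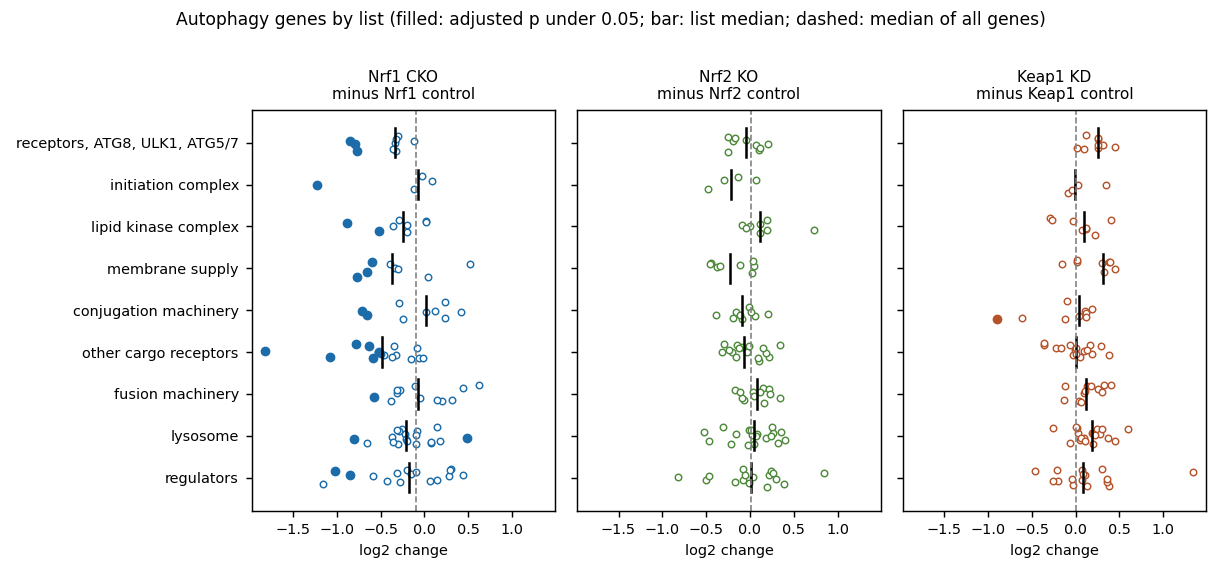
Log2 change (horizontal axis) of each measured gene of the members and of 8 autophagy lists, by comparison, with filled circles for an adjusted p under 0.05, a bar for the list's median and a dashed line for the median of all genes tested. Filled circles stand mainly left of 0 in the Nrf1 panel, with Bnip3 farthest out at -1.81, against 0 filled in the Nrf2 panel and 1 in the Keap1 panel.

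Loss of NRF2 changed no member past the test. Of the 9, 0 were called by limma and 0 had an unadjusted p under 0.05, in a comparison that called 0.0621% of all genes (11 of 17721), so a count of 0 is also what the background gives. No member had groups that did not overlap, against 9.8% of all genes that lay higher and 11% that lay lower in every mutant sample. The median log2 change of the members was -0.04, between -0.25 and 0.21.

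Sqstm1 read 6.98, 7.17 and 7.29 in Nrf2 controls and 6.87, 6.80 and 7.03 in Nrf2 KO livers. The groups overlapped by 1 mutant sample, and the log2 change of -0.25 had a 95% interval of -0.59 to 0.10 (limma adjusted p = 0.719). Nbr1 was at -0.25 (-0.57 to 0.07), and Gabarapl1 by 0.12 (-0.30 to 0.53). Ulk1 was at -0.17 (-0.68 to 0.33) and Map1lc3b at 0.21 (-0.29 to 0.71). No slide and no scan date held both Nrf2 groups, so a value within a batch cannot be given. Fits with the scan date as a block, which take the dates' offsets from the other lines, moved Ulk1 to 0.66 and Map1lc3b to 0.84, and neither passed.

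Of the 76 genes of the 7 lists, 0 were called by limma in Nrf2 KO livers, and the median log2 change was 0.01. An unadjusted p under 0.05 was found for 8 of them, 7 lower and 1 higher, or 10.5%, against 8.89% of all genes. In the same livers 0 of 20 genes of the KEAP1-NRF2 axis and its targets rose and 2 fell. These were the targeted Nfe2l2 and Nqo1, a classical NRF2 target, which fell by 1.47 on the log2 scale (SE 0.25, limma adjusted p = 0.0384). No other target was called, while 16 of the 20 genes were below 0 (median -0.39).

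Lowered KEAP1 also left all 9 members short of the threshold, with log2 changes that were all above 0. Of the 9, 0 were called by limma and 1, Gabarapl1, had an unadjusted p under 0.05, where 5.52% of all genes were called. The members' median was 0.25 against 0.00 over all genes, 49.9% of which were below 0. In 2 of 9 members every mutant lay above every control, as did 5.54% of all genes. Against the array median the median of all genes shifted to 0.29 and that of the members to 0.54, while the percentile over detected probes gave -0.10 and 0.16, and quantile normalization 0.01 and 0.15. Gabarap and Nbr1 were at or below 0 in several of these, so their direction is not settled. The share of called genes that were higher was 17.2%, 27.4% after quantile normalization, 27.6% after normexp and quantile, 10.8% with the percentile over detected probes and 48.8% with array medians.

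Sqstm1 read 7.36, 7.32 and 7.15 in Keap1 controls and 7.73, 7.45 and 7.39 in Keap1 KD livers. The lowest mutant sat just above the highest control, and the log2 change of 0.25 (18.9%) had a 95% interval of -0.10 to 0.60 (limma adjusted p = 0.506). Within slide 7 (1 sample against 1) it was 0.25 and within scan date 4 (1 mutant against 2 controls) it was 0.16. In the same livers 12 of 20 genes of the KEAP1-NRF2 axis and its targets rose and 1 fell, Keap1 itself, with Nqo1 at 3.33 (SE 0.25), Srxn1 at 2.06 and Gclc at 1.01 on the log2 scale. That count was 10 to 12 in the scaling alternatives and when each array was left out, and 2 with slide as a block.

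Gabarapl1 had the largest change of the members in Keap1 KD livers, 0.45 with an interval of 0.03 to 0.86, which did not pass (limma adjusted p = 0.249). It was at 8.41, 7.82 and 8.48 in controls and 8.76, 8.74 and 8.55 in mutants. The groups did not overlap, and control 2 stood below the other controls by more than the gap between the groups. Within slide 7 the difference was 0.07 and within scan date 4 it was 0.40. A second probe of the gene gave 0.59 (SE 0.27), but its groups overlapped. On it Keap1 control 3 (4.06) lay above Keap1 KD 1 (4.02) and Keap1 KD 3 (4.04).

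The remaining members did not pass in Keap1 KD livers, at adjusted p between 0.506 and 0.977. Atg7 was at 0.31 (-0.23 to 0.85), with control 3 (-0.47) far below controls 1 and 2 (0.37 and 0.63). Map1lc3a, Map1lc3b and Atg5 were each at 0.25, with intervals that reached from -0.18 to 0.68, -0.25 to 0.76 and -0.10 to 0.60. Ulk1 was at 0.12, Gabarap at 0.10 and Nbr1 at 0.02. Ulk1 turned below 0 without Keap1 control 2 or Keap1 KD 3, as did Atg7 without Keap1 control 3. Of the 76 other autophagy genes 1 was called, Atg16l2, a relative of the ATG16L1 protein that places the conjugation machinery on the membrane. It was at -0.11, -0.40 and -0.19 in controls and -1.14, -1.09 and -1.16 in mutants (-0.90, SE 0.16, adjusted p = 0.00628).

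Whether the lines differed in their effects was tested with the same fit, as a difference between log2 changes. The Nrf1 effect on Gabarapl1 was lower than the Keap1 effect by 1.21 on the log2 scale (95% interval -1.80 to -0.63, limma adjusted p = 0.0233), the only member called in this difference, where 6.92% of all genes were. Map1lc3b came next at -1.10 (-1.81 to -0.39, adjusted p = 0.0569), followed by Ulk1 at -0.90 (adjusted p = 0.101) and Atg5 at -0.59 (adjusted p = 0.119). In a limma fit over all probes, the second probes of Map1lc3b (-0.83, adjusted p = 0.0402) and Ulk1 (-1.14, 0.0371) passed. So did that of Gabarapl1 (-1.44, 0.0388), so that which members are called here depends on the probe taken. The call of Gabarapl1 was lost without Nrf1 control 1 (-1.18, adjusted p = 0.0628), without Nrf1 CKO 2 (-1.08, 0.0632) or without Nrf1 CKO 3 (-1.18, 0.0640). It was also lost after quantile normalization (-0.61, 0.206), after normexp and quantile normalization (-0.73, 0.0912), without the background filter (0.0575), with slide (0.310) or scan date (0.0631) as a block, and with only the arrays compared (0.0634). The Nrf1 and Keap1 lines shared no slide and no scan date.

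Against the Nrf2 effect, 0 members were called by limma in either difference, where 5.58% of all genes were called for the Nrf1 line and 3.09% for the Keap1 line. The Nrf1 effect was lower by 1.06 for Map1lc3b (-1.77 to -0.35, adjusted p = 0.0708) and by 0.88 for Gabarapl1 (-1.47 to -0.30, adjusted p = 0.0686), the 2 members with an unadjusted p under 0.05. Between the Keap1 and Nrf2 effects, Sqstm1 had the largest difference, 0.50 (0.01 to 0.98, adjusted p = 0.286), and was the 1 member with an unadjusted p under 0.05. Atg5 followed at 0.45 (-0.04 to 0.95).

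Across the 6 groups, the level of Sqstm1 was ordered from Nrf2 KO (6.90 ± 0.12) over Nrf2 control (7.15 ± 0.15), Nrf1 CKO (7.15 ± 0.31), Nrf1 control (7.27 ± 0.07) and Keap1 control (7.27 ± 0.11) to Keap1 KD (7.52 ± 0.18; SD, n = 3 each). The samples of neighbours in this order overlapped, except for Keap1 control and Keap1 KD, whose difference did not pass the test, and the group means spanned 0.62 log2 units. The Nrf1 CKO samples overlapped the controls of both other lines for Map1lc3b and Ulk1, and for Gabarapl1 those of the Keap1 line but not of the Nrf2 line. Ulk1 was at 5.14 to 5.81 in Nrf1 CKO samples, against 5.58 to 5.88 in Nrf2 controls and 4.69 to 5.63 in Keap1 controls, and its highest levels were in Nrf1 controls (6.08 to 6.36). Levels between lines were not tested. The Nrf1 line shared no slide or scan date with the other lines, and the Nrf2 line was of another strain.

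The genes whose levels lay nearest to that of Sqstm1 were found by the root mean square difference of centred log2 levels over 18 arrays. They were sought among 12833 genes with a symbol. The nearest were Habp4 (0.154), 2700062C07Rik (0.161), Cdc34 (0.163), Tbc1d14 (0.165) and Csnk2a1 (0.169), against a median of 0.444 over all these genes. Sqstm1 itself varied little (SD 0.241 over 18 arrays), so that a gene with little variation of its own is near it by this measure. In Nrf2 KO livers, where Sqstm1 changed by -0.25, these genes changed by -0.36, -0.27, -0.41, 0.005 and 0.006 in the order named. All points share the same 18 livers and the same scaling.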

How the data were processed

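RNA of mouse liver (500 ng per sample) was labelled with Cy3 and hybridized to single-colour Agilent arrays, 1 per sample, per the labels' protocols. Per the file headers, the processed signal is an intensity from Agilent Feature Extraction 10.7.3.1 that was background-subtracted and detrended, with no scaling across arrays. The median signals, also intensity values per the file headers, are uncorrected. Spot flags (background, outlier, saturation) and control codes are other deposited output. The authors' series table held the same intensities at 810324 of 810324 entries. The headers name another build than the gene table, so no gene coordinates are given from them. Promoter windows are RefSeq's (GRCm38.p6).

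The 1639 control spots and outlier spots were left out, log2 intensities of a probe were averaged, and log2 of each array's 75th percentile was subtracted. Of 41174 probes, 23554 were kept because every array of some group had them well above background, and the brightest probe stood for a gene. Symbols came from RefSeq transcripts or, failing that, from a matching symbol or synonym, for 64.9% of probes. Of the 17721 genes tested, 12874 had a symbol, and the others were counted under the array's own names. limma 3.58.1 (R 4.3.3) fitted the means of the 6 groups to 18 arrays, with 12 residual and 3.07 prior degrees of freedom. Benjamini-Hochberg adjustment ran over 17721 genes, with a threshold of 0.05. The tests were mutant against its own line's control and the 3 differences between those effects. The number of arrays limits the precision, with a median standard error of 0.244 for a mutant against its control. The fit was tested on simulated data.

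The members, gene lists and marker lists were chosen with earlier results of these data known. The genes named are all members, up to 4 called genes of each autophagy list and comparison by size of change, the 5 genes nearest to Sqstm1, and the targeted genes. Of the called markers only some are named. Genes of the KEAP1-NRF2 list were picked for naming after their values were seen. A result on 1 lysosome gene is not reported here. Alternatives were other scalings, normexp (offset 50) of the median signals before quantile normalization, since mean signals are not used here, other filters, variance models, blocks by slide (7), scan date (4) and replicate number, only the arrays compared, and each array left out. Samples with the same replicate number deviated together, at a correlation over 0.1, in 4 of 9 pairs, so the numbers were not taken as pairs.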

Additional observations from a re-analysis of the deposited data

Results flagged for a closer look

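The effect on Gabarapl1 differed between 2 lines: the log2 change in Nrf1 CKO livers (-0.76) minus that in Keap1 KD livers (0.45) was -1.21 (SE 0.27, limma adjusted p = 0.0233). On the probe used, all 3 mutant samples lay below their controls in the Nrf1 line and all 3 lay above them in the Keap1 line. On the second probe of the gene the Keap1 groups overlapped. Map1lc3b and Ulk1 also passed for this difference on their second probes, in the fit over all probes. Over the alternatives and left-out arrays the difference ran from -1.61 to -0.61 and its adjusted p from 0.00563 to 0.310. Groups of 3 are too small to test whether a sample lies far from the others.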

How the results depend on the processing

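Of 567 alternative values for the effect of a mutant on a member, 537 kept the reported side of the threshold and 25 lost and 5 gained a call. None with a call on either side changed direction, while 32 uncalled values changed sign. For differences between effects, 698 of 729 kept their side, 9 lost and 22 gained a call, and 36 uncalled values changed sign. The members called in Nrf1 CKO livers were 3 as reported, 0 after quantile normalization, 1 after normexp and quantile, 1 without the background filter, 7 with array quality weights and 0 with slide as a block, and 0 to 3 when each array was left out. Ulk1 lost its call in 12 of 21 alternatives, Map1lc3b in 7 and Gabarapl1 in 6. For the Nrf1 effect minus the Keap1 effect, 1 member was called as reported. The count was 0 after quantile normalization, after normexp and quantile, without the background filter, with slide or scan date as a block, and with only the arrays compared. It was 2 with probes above background on all arrays, with the mean of a gene's probes and with an intensity trend, 3 with array weights, 4 with array medians, and 0 to 3 with arrays left out. For the Nrf1 effect minus the Nrf2 effect, 0 members were called as reported, 4 with array weights and 2 with only the arrays compared, and 0 to 2 with arrays left out. In Nrf2 KO and Keap1 KD livers, and for the Keap1 effect minus the Nrf2 effect, 0 members were called in every alternative. Where an array was left out, all groups shared the estimate of the spread. The genes called in all ranged from 65 to 8704 in Nrf1 CKO livers, from 6 to 116 in Nrf2 KO livers and from 52 to 1181 in Keap1 KD livers, against 3348, 11 and 979 as reported, and the low ends were the slide block and the fits of 1 line. The cause of these shifts was not tested.

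With the replicate number as a block, the members called were 3 in Nrf1 CKO livers, 2 for the Nrf1 effect minus the Keap1 effect and 1 for the Nrf1 effect minus the Nrf2 effect. Same-numbered samples correlated at -0.359 to 0.147 in their deviations from the group means. With so few pairs, these values cannot tell whether such samples share more than a number.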

Other observations

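Genes of the KEAP1-NRF2 axis and its targets also changed in Nrf1 CKO livers, where 5 of 20 rose and 2 fell by limma (18.9% of all genes were called). Those that rose were Cbr3 (1.61, SE 0.46), which encodes a carbonyl reductase, Ephx1 (1.47, SE 0.31), an epoxide hydrolase gene, Srxn1 (1.13, SE 0.25), the sulfiredoxin gene, Hmox1 (0.93, SE 0.27, overlapping groups) and Pgd (0.66, SE 0.18), of the pentose phosphate pathway. Nfe2l1, the targeted gene, and the efflux transporter gene Abcc3 (-0.82, SE 0.25) fell. The number that rose was 0 with slide as a block, 1 without Nrf1 CKO 3, 2 without Nrf1 control 1 or without Nrf1 CKO 2, and 3 with array medians. Without the background filter 2 of 21 rose. In the reported fit the median of the 20 genes was 0.09, 9 were below 0, and Nqo1 was not called. Of the axis itself, Nfe2l2 was at 0.68 (SE 0.48) and Keap1 at -0.71 (SE 0.31). Neither was called (limma adjusted p = 0.331 and 0.116). Sqstm1, also known as an NRF2 target gene, was at -0.12 in these livers. The part of NRF2 in these changes was not tested.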
